A study of Mus musculus with 12 samples.

Results

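Within the label-retaining fraction of mouse epidermis, cells of the spinous layer were compared with cells of the basal layer. Members of the comparison were the arrays titled as sorted epidermal SL LRCs (2 arrays) and BL LRCs (3 arrays), which are 5 of the 12 arrays in the series. The remaining arrays are 3 of BL non-LRCs, 2 of SL non-LRCs and 2 of GL cells. The labels do not spell out the abbreviations, and knowledge of the study gives LRC as label-retaining cell, and BL, SL and GL as the basal, spinous and granular layers.

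All groups came from skin of mice with 4 transgenes, namely the label pair K5-tTA and pTRE-H2B-GFP together with the tracing pair of K14-CreER with Rosa-tdTomato. In this system the keratin 5 promoter drives a transactivator that switches on a green fluorescent histone, and doxycycline stops its production, so that the label is diluted as cells divide. The keratin 14 promoter drives a tamoxifen-dependent Cre recombinase that switches on a red reporter, and both promoters are active in basal keratinocytes and in the outer part of the hair follicle. Every group, the BL LRC controls included, carried all these alleles and received the same agents, namely doxycycline in the food at 1 g/kg for 2 weeks and 1 tamoxifen injection at 75 mg/kg, with tissue taken 1 week later at second telogen, the second resting phase of the hair cycle. Cells were sorted, and the sources used here do not give the gates, the ages or the number of animals. The p-values below therefore cover the spread among these samples, which may be technical.

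The interfollicular epidermis is a stratified sheet in which basal cells hold on to the basement membrane through integrins and hemidesmosomes and supply new cells. Cells that leave the basal layer become spinous cells, which assemble desmosomes and change their keratins, and then granular cells, which make the cornified envelope and the lipid barrier. A cell that retains a diluted histone label has divided less often than its neighbours since the label was switched off, whichever layer it lies in.

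Each array gives scaled intensity values for 18193 genes, in units whose trimmed mean was set to 500.0 on each array. Between 68.9% and 76.8% of genes lay above background on the 5 arrays, background being the 95th percentile of bacterial control probe sets on that array. Across genes r lay between 0.927 and 0.932 for arrays of the same group, and between 0.915 and 0.927 for arrays of different groups. BL LRC 1 stood apart from the other 4 arrays in a hybridisation control, with a BioB signal of 466.8 units against 3282.9 to 3930.6, and it alone of the 5 had 0 of 3 Y-linked genes above background. For that reason counts are also given for the 4 arrays BL LRC 2 and 3 and SL LRC 1 and 2, called the high-BioB arrays below. A call means a limma adjusted p under 0.05, and a call is said to be retained where it also passed in each of the 5 fits that leave out 1 of these arrays. Differences are log2 values, SL LRC minus BL LRC, over 2 and 3 arrays, and are given with standard errors. These standard errors come from the fit to all arrays of the series. They pool the spread within all groups and do not measure the spread of the LRC arrays alone.

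Of the layer markers fixed for this check, 1 of 7 basal genes was lower, and 2 of 6 spinous and 4 of 6 granular genes were higher. None of 5 major epidermal keratins passed the test, although the groups did not overlap for 4 of them. Over all 18193 genes tested, the groups did not overlap for 2606 genes that were higher in SL LRCs and 2812 that were lower. Groups that lie apart were thus common, and here and below they do not on their own show a difference. Krt1, a keratin typical of spinous cells, read 17001, 19561 and 23288 units on the BL LRC arrays and 28132 and 25741 units on the SL LRC arrays. Krt10, its partner, read 27335, 26712 and 28834 units on the BL LRC arrays and 32913 and 29532 units on the SL LRC arrays. Both were bright in the basal fraction too, and their differences of 0.44 ± 0.18 and 0.17 ± 0.12 did not pass the test (adjusted p = 0.286 and 0.643).

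The basal keratins Krt5, Krt14 and Krt15 were bright on all 5 arrays as well. Their differences were -0.36, -0.44 and -0.20, with adjusted p = 0.253, 0.0515 and 0.675. Krt14 had non-overlapping groups, with 25392, 24191 and 25174 units in BL LRCs and 18819 and 18023 units in SL LRCs. Trp63, the p63 transcription factor of basal cells, differed by -0.09 ± 0.15 (adjusted p = 0.899). The summed level of 7 fixed basal markers was 133951.6 to 143578.2 units on the BL LRC arrays and 101876.7 to 114847.8 on the SL LRC arrays. For 6 spinous markers the sums were 87534.5 to 108883.4 and 127502.6 to 137928.7, and for 6 granular markers 2916.8 to 4297.8 and 9343.6 to 10106.1. The sums did not overlap between the groups in any of these 3 marker sets, but the brightest members weigh most in them. In the granular sum Casp14 alone read 1842, 2541 and 3298 units in BL LRCs and 5863 and 7047 in SL LRCs. The keratins above, none of them called, were among the brightest members of the other sums. In sorted bulk samples, fewer cells of a type and less RNA per cell cannot be told apart, which applies to every difference below.

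In all, 512 of the 18193 genes passed the test, 256 higher in SL LRCs (1.41%) and 256 lower (1.41%), while 2362 genes would pass at 0.05 before adjustment. The called differences had a median size of 1.51, and 216 of the higher and 205 of the lower genes changed at least 2-fold. For 463 of the 512 genes every one of the 5 arrays lay above background. With only the high-BioB arrays 172 genes were higher and 133 lower, and 251 of these calls were among the 512. Without SL LRC 1 the counts were 85 higher and 97 lower, without SL LRC 2 they were 81 and 124, and without BL LRC 1, 2 and 3 in turn they were 163 and 149, 153 and 137, and 210 and 150. Of the 512 calls, 96 were retained. Without the mean-variance trend in the model 26 genes were higher and 39 lower, and with arrays centred on their medians 40.0% of the 492 calls were lower ones.

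**Figure D1:**
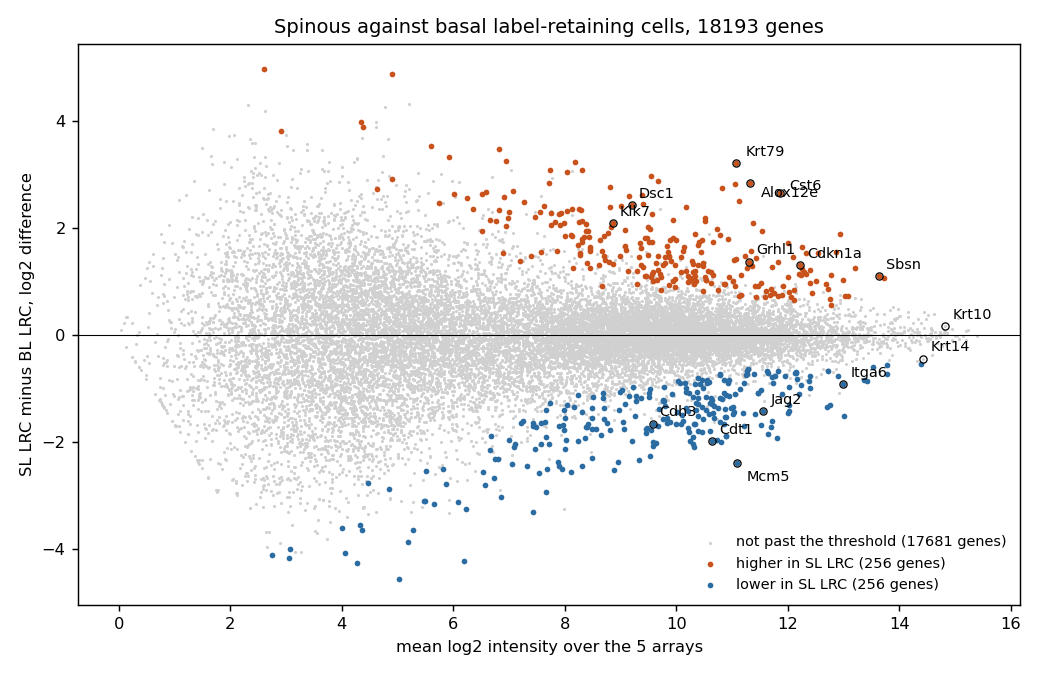
Each point is 1 of the 18193 genes, with its mean log2 intensity over the 5 arrays on the horizontal axis and the SL LRC minus BL LRC log2 difference on the vertical axis. Orange and blue points are the 256 higher and 256 lower genes that passed the test, and labelled circles are genes named in the text, Krt79 lying high and Mcm5 low on the vertical axis and Krt10 and Krt14 nearer to 0.

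Krt79, a keratin of the hair follicle infundibulum, had the smallest p of all genes. It read 829, 823 and 1008 units on the BL LRC arrays and 9007 and 7563 units on the SL LRC arrays, a difference of 3.23 ± 0.23 (adjusted p = 1.84e-06). Every SL LRC array lay above every BL LRC array by several-fold. Mcm5, a subunit of the replicative helicase, had the smallest p among the lower genes and read 4187, 3854 and 4711 units on the BL LRC arrays and 816 and 797 units on the SL LRC arrays. That is a difference of -2.39 ± 0.21 (adjusted p = 3.49e-05), and the groups lay well apart. Both calls were retained.

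Of the lists examined, DNA replication held the most calls, all of them lower in SL LRCs. Of 51 measured genes of replication and S phase, 28 were lower and 0 higher, where 1.41% of all genes were lower, and 49 had a negative difference. The list median was -1.26, against -0.01 over all genes tested. The count of lower members was 20, 18 and 20 without BL LRC 1, 2 and 3 in turn and 14 and 14 without SL LRC 1 and 2, and 15 with the high-BioB arrays alone.

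All 6 subunits of the MCM2 to MCM7 helicase, which unwinds DNA at the fork, were among the lower genes, with differences from -2.39 to -1.54. Mcm3 read 3580.0, 2792 and 3282 units on the BL LRC arrays and 964 and 786 units on the SL LRC arrays (-1.88 ± 0.19, adjusted p = 6.92e-05). Mcm7 read 3360.3, 3031 and 2342 units on the BL LRC arrays and 986 and 996 units on the SL LRC arrays (-1.54 ± 0.21, adjusted p = 0.000728). In both genes the SL LRC arrays lay far below the lowest BL LRC array. Mcm6, Mcm4 and Mcm2 differed by -1.61, -1.79 and -1.83. The helicase calls were retained except that of Mcm2, which was lost without SL LRC 1 and without SL LRC 2 (highest adjusted p = 0.115). Each of the 6 was read by a probe set that its name marks as able to bind more than 1 transcript (Mcm2, Mcm3 and Mcm7 by an _s_at and Mcm4, Mcm5 and Mcm6 by an _x_at probe set). With such probe sets left out, all 6 were still called lower, with differences of -2.18 for Mcm2, -1.99 for Mcm3, -1.39 for Mcm4, -2.08 for Mcm5, -1.12 for Mcm6 and -1.73 for Mcm7.

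Other lower members load or accompany the helicase, 2 of 4 measured GINS subunits among them. Cdt1, which brings the helicase to origins, read 2744, 3379 and 2269 units on the BL LRC arrays and 722 and 682 units on the SL LRC arrays (-1.98 ± 0.21, adjusted p = 0.00012). Gins2, a subunit of the active helicase complex, read 1933, 1045 and 1264 units on the BL LRC arrays and 273 and 389 units on the SL LRC arrays (-2.07 ± 0.29, adjusted p = 0.0009). The SL LRC arrays were the lowest of the 5 for both. Mcm10, which helps fire origins, was above background in all BL LRCs and in no SL LRC array and was at least 4.29-fold lower. Chaf1b, a subunit of the histone chaperone CAF-1, read 532, 429.6 and 347 units on the BL LRC arrays and 114 and 16.7 units on the SL LRC arrays, and Chek1, the checkpoint kinase of S phase, read 392, 539.7 and 449 units on the BL LRC arrays and 26.3 and 137 units on the SL LRC arrays, each with 1 SL LRC array above background. Both were lower on every SL LRC array (-3.30 ± 0.59 and -2.93 ± 0.57, adjusted p = 0.005 and 0.0088). Cdt1 and Gins2 retained their calls, Chaf1b and Chek1 did not (highest adjusted p = 0.0747 and 0.164), and Mcm10 lost its call without SL LRC 2 (adjusted p = 0.0771).

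Other lower members act in nucleotide supply and at the fork. Dut, which keeps uracil out of DNA, read 3937, 2636 and 2867 units on the BL LRC arrays and 764 and 795 units on the SL LRC arrays (-1.99 ± 0.29, adjusted p = 0.000999). Rrm2, a subunit of ribonucleotide reductase, read 1371, 1171 and 1386 units on the BL LRC arrays and 391 and 414 units on the SL LRC arrays (-1.70 ± 0.27, adjusted p = 0.00191). Pcna, the sliding clamp, was bright in both groups, with 6892, 6735 and 6795 units in BL LRCs and 3663 and 3822 units in SL LRCs (-0.86 ± 0.17, adjusted p = 0.00844). The groups did not overlap in any of these 3, although the Pcna change was the smallest of the 28. Pcna lost its call without SL LRC 1 and without SL LRC 2 (highest adjusted p = 0.0975), and Dut and Rrm2 retained theirs. Among the clamp loaders Rfc3 (-1.51) and Rfc2 (-1.36) were lower, 2 of 5 measured. Lig1, the DNA ligase that joins Okazaki fragments, fell by 1.75, Uhrf1, which maintains DNA methylation behind the fork, by 1.55, and the transcription factor E2f1 by 1.87. None of these 5 calls was retained (highest adjusted p = 0.116, 0.336, 0.103, 0.0933 and 0.516 in that order).

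**Figure D2:**
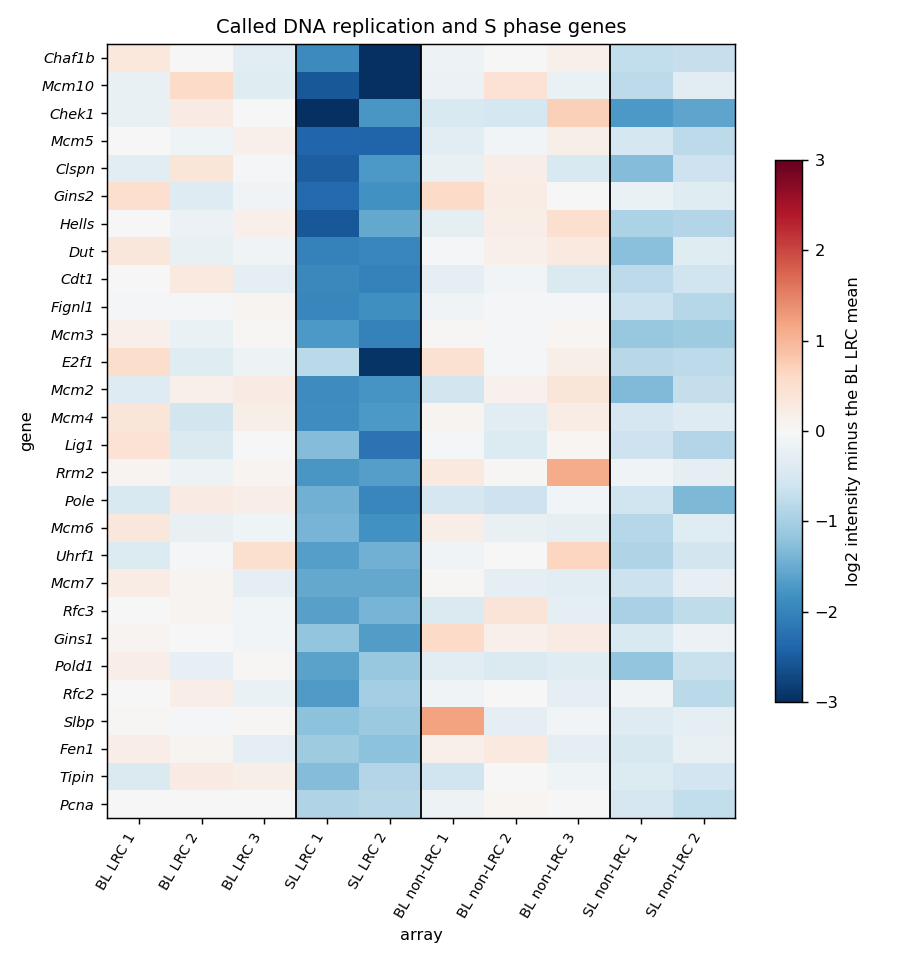
Rows are the 28 DNA replication and S phase genes that were lower in SL LRCs and columns are 10 arrays, with colour giving log2 intensity minus the mean of the 3 BL LRC arrays (blue lower, red higher, values beyond 3 in either direction drawn at the end of the scale). The 2 SL LRC columns are blue throughout, and the 2 SL non-LRC columns are paler for most genes.

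Promoters of 3 helicase genes are shown because the 6 genes were lower together and E2F factors are known regulators of replication genes. They were chosen among the 4 that hold a match to an E2F element (Mcm3, Mcm5, Mcm6 and Mcm7). The window of Mcm2 holds none, and Mcm4 had no promoter sequence to search. Each line gives the 180 bases just before the annotated start of the gene from RefSeq (GRCm38.p6), 5′ to 3′ on the gene's strand, with capitals marking a match to an E2F element, TTTGGCGC or TTTCCCGC, on either strand. Mcm5 is at chr8:75109329-75109508 on the plus strand, with GCGCCAAA 149 bases before the start. Mcm6 is at chr1:128359706-128359885 on the minus strand, with TTTGGCGC 110 and 47 bases before the start. Mcm7 is at chr5:138171884-138172063 on the minus strand, with GCGGGAAA 165 bases before the start.
Mcm5: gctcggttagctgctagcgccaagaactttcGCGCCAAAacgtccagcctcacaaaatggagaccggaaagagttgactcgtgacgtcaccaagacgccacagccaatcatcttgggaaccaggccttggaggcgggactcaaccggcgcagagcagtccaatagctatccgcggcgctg
Mcm6: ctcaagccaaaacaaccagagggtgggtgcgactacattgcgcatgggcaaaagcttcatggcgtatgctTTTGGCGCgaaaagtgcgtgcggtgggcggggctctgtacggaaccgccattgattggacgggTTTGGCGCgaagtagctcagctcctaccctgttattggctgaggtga
Mcm7: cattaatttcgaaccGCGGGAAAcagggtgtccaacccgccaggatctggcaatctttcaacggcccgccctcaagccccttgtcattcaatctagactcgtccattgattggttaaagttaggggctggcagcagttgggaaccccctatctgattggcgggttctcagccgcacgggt

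Over windows from 250 bases before to 50 bases after the start, 1 or both E2F elements were found at 9.4% of the called lower genes with a promoter (19 of 203), at 1.6% of the called higher genes (3 of 183) and at 2.8% of all 14452 genes with a promoter. On the replication list the share was 33.3% (14 of 42). Among called lower genes on neither the replication nor the mitosis list it was 6.2% (11 of 178). A match describes letters in the window and says nothing on binding.

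Most genes of the mitosis list had negative differences that did not pass the test. Of 49 measured genes, 6 were lower and 0 higher, where 1.41% of all genes were called in each direction. A negative difference was seen for 45, and the median was -1.01. The list does not hold every mitosis gene. Espl1, or separase, which is not on it, was called higher, and whether that call was retained is not given here. The counts of lower members were 1, 2 and 2 without BL LRC 1, 2 and 3 in turn and 2 and 2 without SL LRC 1 and 2, and with the high-BioB arrays alone 1 was lower and 1 higher. Mki67, the Ki-67 antigen of cycling cells, read 2299.8, 1795 and 2026 units on the BL LRC arrays and 987 and 848 units on the SL LRC arrays (-1.15 ± 0.23, adjusted p = 0.0114). Both SL LRC arrays lay below all BL LRC arrays. Smc4, a condensin subunit, and Ect2, which sets up the cleavage furrow, fell by 0.74 and 1.64. Aspm, a spindle pole protein, read 242, 224 and 211 units in BL LRCs and 141 and 63.2 units in SL LRCs and did not pass (-1.26 ± 0.41, adjusted p = 0.144). The Mki67 call was lost without SL LRC 1 and without SL LRC 2 (highest adjusted p = 0.141), and those of Smc4 and Ect2 were not retained either (highest adjusted p = 0.191 and 0.199).

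Of 38 measured cell cycle inhibitors and growth arrest genes, 3 were higher and 1 lower, with a median of 0.08. Cdkn1a, the inhibitor p21, read 3739, 2899 and 3359 units on the BL LRC arrays and 8041 and 8393 units on the SL LRC arrays (1.31 ± 0.18, adjusted p = 0.000757). Cdkn2b, the inhibitor p15, read 326, 462 and 519 units on the BL LRC arrays and 2185 and 1301 units on the SL LRC arrays (1.98 ± 0.32, adjusted p = 0.00229). Both were higher on every SL LRC array. Ndrg2, a gene linked to growth arrest, rose by 1.56 ± 0.24. Cdkn1a and Ndrg2 retained their calls, while Cdkn2b lost its call without SL LRC 1 (adjusted p = 0.0761). Cdkn1b, the inhibitor p27, read 3709.8, 2926 and 2794 units in BL LRCs and 3224 and 3123 units in SL LRCs and did not pass (adjusted p = 0.979), with a difference of 0.03 whose sign changed in some alternative fits. Cdkn1c, the inhibitor p57, was not above background in either group.

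Among genes of attachment to the basement membrane, most calls were lower in SL LRCs. Of 28 measured integrin, hemidesmosome and basement membrane genes, 7 were lower and 1 higher, and the median was -0.64. The count of lower members was 3, 3 and 5 without BL LRC 1, 2 and 3 in turn and 2 and 3 without SL LRC 1 and 2, and 8 with the high-BioB arrays alone. Itga6, the integrin subunit of hemidesmosomes, read 9907, 11235 and 10334 units on the BL LRC arrays and 5736 and 5419 units on the SL LRC arrays (-0.91 ± 0.14, adjusted p = 0.00195). Itgb1, the beta subunit of several laminin and collagen receptors, read 1935, 2039 and 1799 units on the BL LRC arrays and 711 and 877 units on the SL LRC arrays (-1.28 ± 0.20, adjusted p = 0.00149). Every BL LRC array lay above both SL LRC arrays for these integrins, and both calls were retained.

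Laminin and collagen genes of the basement membrane were among the other lower members. Lamb3 and Lama3, chains of the laminin that binds hemidesmosomes, fell by 1.45 and 0.69, Col7a1, which forms the anchoring fibrils, by 1.40, Col4a2, a type IV collagen chain, by 1.74, and Itga3, a laminin-binding integrin subunit, by 1.45. These 5 were not retained (highest adjusted p = 0.119, 0.239, 0.227, 0.226 and 0.197). Itgb5, a vitronectin receptor subunit, was the member that rose, by 1.11 ± 0.20, and it lost its call without SL LRC 2 (adjusted p = 0.0855).

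Among 28 measured genes listed as basal keratinocyte genes, 8 were lower and 2 higher, with a median of -0.55. The count of lower members was 5, 6 and 5 without BL LRC 1, 2 and 3 in turn and 5 and 2 without SL LRC 1 and 2, and 4 with the high-BioB arrays alone. Cdh3, or P-cadherin, a cell adhesion protein of basal cells, read 1042, 1296 and 1295 units on the BL LRC arrays and 384 and 383 units on the SL LRC arrays (-1.65 ± 0.24, adjusted p = 0.000909). Lgr6, a receptor that marks epidermal and follicle progenitors, read 1118, 2358 and 897 units on the BL LRC arrays and 440.2 and 252 units on the SL LRC arrays (4-fold lower, adjusted p = 0.00498). The groups were apart in both, Lgr6 being uneven among the BL LRC arrays. Cdh13, or T-cadherin, fell by 2.04, and Ccnd2, cyclin D2, by 0.73. Cdh3 was retained, and the others were not (highest adjusted p = 0.11, 0.0689 and 0.182 in that order).

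The higher members of the basal list were Sostdc1 and Aqp3. Sostdc1, a secreted antagonist of BMP and Wnt signalling, read 5660.0, 6125 and 6474 units on the BL LRC arrays and 13718 and 11274 units on the SL LRC arrays (1.03 ± 0.15, adjusted p = 0.000909) and was retained. Aqp3, a channel for water and glycerol, read 1393, 1753 and 1164 units in BL LRCs and 3538 and 2169.8 units in SL LRCs (0.97 ± 0.23, adjusted p = 0.0307), and its call was lost on leaving out BL LRC 1, BL LRC 3 or SL LRC 1 (highest adjusted p = 0.43).

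Spinous genes were next in number of calls, all of them higher in SL LRCs. Of 28 measured members, 14 were higher and 0 lower, where 1.41% of all genes were higher, 27 had a positive difference and the median was 1.02. The count of higher members was 10, 10 and 15 without BL LRC 1, 2 and 3 in turn and 8 and 7 without SL LRC 1 and 2, and 13 with the high-BioB arrays alone. Dsc1, a desmosomal cadherin of suprabasal cells, read 229, 269 and 433 units on the BL LRC arrays and 1486 and 1759.6 units on the SL LRC arrays (2.44 ± 0.28, adjusted p = 0.000273). Endou, an endoribonuclease found in differentiating epidermis, read 251, 321 and 257 units on the BL LRC arrays and 1549.5 and 1823 units on the SL LRC arrays (2.61 ± 0.32, adjusted p = 0.000298). The lowest SL LRC array was more than 3-fold above the highest BL LRC array for both.

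Crabp2, which carries retinoic acid, read 403, 427 and 398 units on the BL LRC arrays and 1757 and 1593 units on the SL LRC arrays (2.03 ± 0.24, adjusted p = 0.000279). Calm4, a calmodulin-like protein of suprabasal cells, read 5539.7, 6735 and 7882 units on the BL LRC arrays and 16062 and 15656 units on the SL LRC arrays (1.25 ± 0.18, adjusted p = 0.00088). Sbsn, or suprabasin, was bright in both groups, with 9379, 8181 and 10676 units in BL LRCs and 19976 and 20415 units in SL LRCs (1.11 ± 0.16, adjusted p = 0.000934). All 3 had both SL LRC arrays above all BL LRC arrays, and they and Dsc1, Endou, Them5 (1.58) and Ly6g6c (1.90) retained their calls. Fabp5, a fatty acid carrier, Mt4, a metallothionein of stratified epithelia, and Evpl, or envoplakin, rose by 1.06, 1.56 and 1.34 without being retained (highest adjusted p = 0.161, 0.27 and 0.183). Dsg1a, a desmosomal cadherin on the same list, had groups apart at 7033, 8484 and 10194 units in BL LRCs and 13722 and 13429 units in SL LRCs and did not pass (0.68 ± 0.18, adjusted p = 0.0603).

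**Figure D3:**
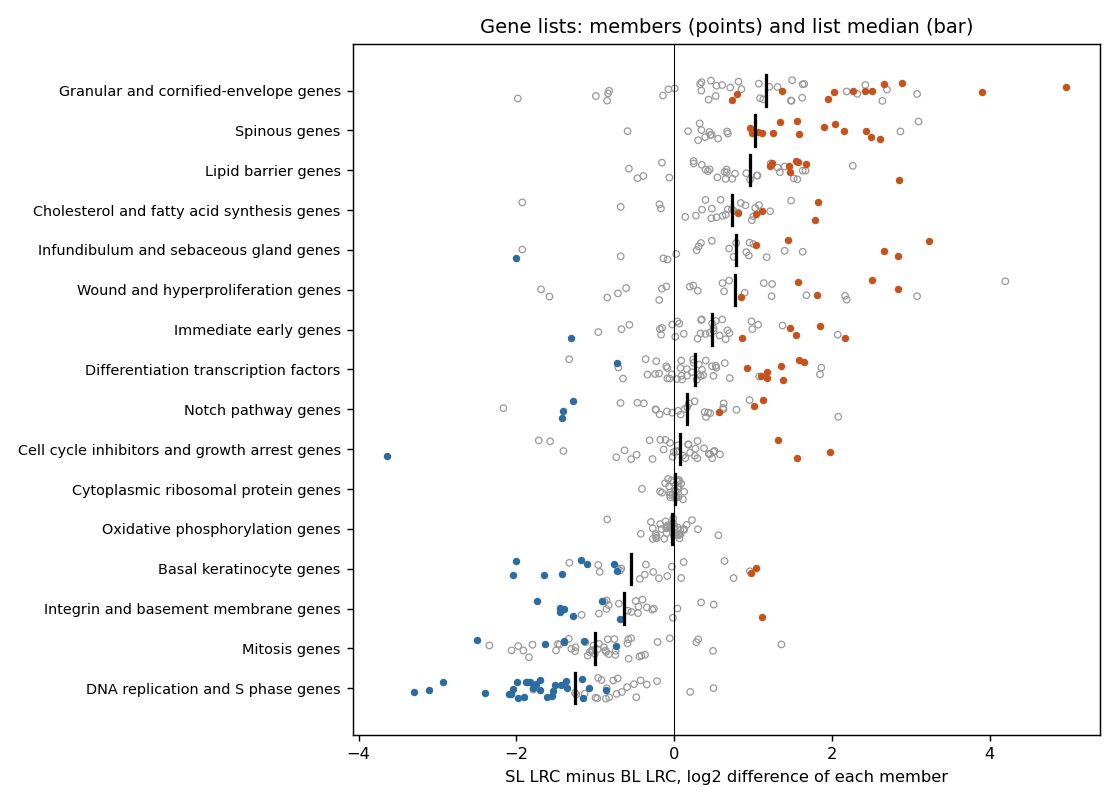
Each row is a gene list, each point the SL LRC minus BL LRC log2 difference of 1 measured member, and the black bar the list median. Orange and blue points passed the test upward and downward, and open grey points did not, so that spinous and cornified-envelope genes lie to the right, replication and mitosis genes to the left, and ribosomal protein and oxidative phosphorylation genes around 0.

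Granular and cornified-envelope genes included 12 higher and 0 lower of 48 measured members, with a median of 1.17. Higher members numbered 7, 7 and 12 without BL LRC 1, 2 and 3 in turn and 5 and 5 without SL LRC 1 and 2, and 8 with the high-BioB arrays alone. Cst6, or cystatin M/E, an inhibitor of epidermal cathepsins, read 1547, 1910.2 and 1899.9 units on the BL LRC arrays and 10289 and 12255 units on the SL LRC arrays (2.66 ± 0.29, adjusted p = 0.000133). Sprr1a, a small proline-rich precursor of the cornified envelope, read 1138, 1191 and 1018 units on the BL LRC arrays and 6107 and 6546 units on the SL LRC arrays (2.51 ± 0.27, adjusted p = 0.000133). Psapl1, a prosaposin-like protein, read 1688, 1649 and 1868 units on the BL LRC arrays and 6053 and 7353 units on the SL LRC arrays (1.95 ± 0.23, adjusted p = 0.000298). The SL LRC arrays stood at least 3-fold above the BL LRC arrays in each, and these 3 and Krt78 (2.88) retained their calls.

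Late markers of the granular layer were less uniform. Flg, or filaggrin, which aggregates keratin filaments, was above background on no BL LRC array and on both SL LRC arrays, at 87.5 and 125 units, and was at least 3.51-fold higher. Ivl, or involucrin, read 115, 109 and 224 units in BL LRCs and 535 and 352 units in SL LRCs and did not pass (1.62 ± 0.45, adjusted p = 0.0633). Lor, or loricrin, read 217, 710.2 and 324 units in BL LRCs and 666 and 427 units in SL LRCs, with overlapping groups (adjusted p = 0.813). Casp14, a protease that processes filaggrin, rose by 1.37 ± 0.26 and Asprv1, another such protease, by 2.03 ± 0.42. Hal, or histidase, rose by 2.27 ± 0.46. The calls of Flg, Casp14, Asprv1 and Hal were not retained (highest adjusted p = 0.235, 0.117, 0.127 and 0.208).

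Promoters of 3 called higher genes are shown because AP-1, the Fos and Jun dimer, is known to act on cornified-envelope genes and its element, TGANTCA, stood at more of the promoters of these lists than of all genes. Each line gives the 180 bases before the start from RefSeq (GRCm38.p6), 5′ to 3′ on the gene's strand, with the element in capitals. Sprr1a is at chr3:92485882-92486061 on the minus strand, with TGAGTCA 146 and 116 bases before the start. Flg is at chr3:93273366-93273545 on the plus strand, with TGAATCA 103 bases before the start. Sbsn is at chr7:30751291-30751470 on the plus strand, with TGAATCA 119 bases before the start.
Sprr1a: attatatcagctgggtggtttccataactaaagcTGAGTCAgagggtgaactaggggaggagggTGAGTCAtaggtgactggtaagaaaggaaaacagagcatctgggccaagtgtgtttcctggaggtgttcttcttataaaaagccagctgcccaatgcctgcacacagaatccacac
Flg: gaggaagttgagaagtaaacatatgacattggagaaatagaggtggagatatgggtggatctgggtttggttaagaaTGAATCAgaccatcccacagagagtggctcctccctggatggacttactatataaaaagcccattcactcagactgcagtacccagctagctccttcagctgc
Sbsn: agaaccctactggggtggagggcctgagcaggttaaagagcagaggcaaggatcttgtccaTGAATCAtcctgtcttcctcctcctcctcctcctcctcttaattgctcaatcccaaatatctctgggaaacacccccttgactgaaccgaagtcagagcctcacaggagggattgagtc

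The AP-1 element lay in the windows of 29.3% of cornified-envelope list members with a promoter (12 of 41), 29.4% of spinous list members (5 of 17) and 0 of 42 replication genes, against 7.5% of all genes. Among called genes the share was 13.1% of the higher (24 of 183) and 8.9% of the lower (18 of 203). The TATA box, TATAAA, lay in 41.5% of cornified-envelope promoters and 11.5% of all. For a Grainyhead element, AACCNGTT, the shares were 1.6% of the higher, 2.0% of the lower and 2.3% of all genes, and for an RBPJ element, TGGGAA, 24.6%, 27.6% and 27.5%. Both strands were searched throughout, and the shares are descriptions with no test.

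Proteases of desquamation and their inhibitors were mixed, with 3 higher and 1 lower of 28 measured and a median of 0.18. Klk7, a chymotrypsin-like kallikrein that cuts corneodesmosomes, read 357, 243 and 204 units on the BL LRC arrays and 1089.9 and 1134 units on the SL LRC arrays (2.09 ± 0.28, adjusted p = 0.000728). Klk5, the trypsin-like kallikrein that activates it, read 207, 160.3 and 224 units on the BL LRC arrays and 787 and 714 units on the SL LRC arrays (1.94 ± 0.28, adjusted p = 0.000919). Ctsl, or cathepsin L, moved the other way, from 1939, 1701 and 1525 units in BL LRCs to 534 and 547 in SL LRCs (-1.67 ± 0.26, adjusted p = 0.00158). The groups were apart in all 3, and these calls and that of Cst6, the other higher member, were retained.

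Lipid barrier genes had 8 higher and 0 lower of 39 measured, with a median of 0.96. The count of higher members was 7, 5 and 7 without BL LRC 1, 2 and 3 in turn and 4 and 3 without SL LRC 1 and 2. Alox12e, an epidermal lipoxygenase, read 1123, 829 and 1684 units on the BL LRC arrays and 8304 and 8456 units on the SL LRC arrays (2.85 ± 0.28, adjusted p = 6.92e-05). Elovl4, which makes very long chain fatty acids, read 2810.5, 2935 and 4552 units on the BL LRC arrays and 9436 and 10159 units on the SL LRC arrays (1.55 ± 0.24, adjusted p = 0.00158). Acer1, an alkaline ceramidase, read 3878, 2905 and 3715 units on the BL LRC arrays and 8483 and 7882 units on the SL LRC arrays (1.24 ± 0.18, adjusted p = 0.00118). In each of these the SL LRC arrays were more than 1.5-fold above the highest BL LRC array, and the 3 calls were retained. Cyp4f39, a fatty acid omega-hydroxylase, Ugcg, or glucosylceramide synthase, and Pnpla1, which makes acylceramides, rose by 1.46, 1.67 and 1.57 without being retained (highest adjusted p = 0.164, 0.221 and 0.473).

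Cholesterol and fatty acid synthesis genes had 5 higher and 0 lower of 31 measured, with a median of 0.73, and 27 positive differences. Me1, or malic enzyme, a source of NADPH, read 551, 607 and 569 units on the BL LRC arrays and 1885 and 2076 units on the SL LRC arrays (1.78 ± 0.28, adjusted p = 0.00151) and was retained. Sqle and Fdft1, enzymes of the squalene steps, Mvk, or mevalonate kinase, and Dhcr7, the last reductase of the pathway, rose by 1.82, 1.04, 1.11 and 0.80. None of those 4 was retained (highest adjusted p = 0.449, 0.439, 0.298 and 0.149). Higher members numbered 2, 1 and 1 without BL LRC 1, 2 and 3 in turn and 1 and 1 without SL LRC 1 and 2.

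Junction genes changed in part. Desmosome genes had 3 higher (Dsc1, Evpl and Cdsn) and 1 lower (Pkp4) of 16 measured, with a median of 0.53, and the count of higher members was 1, 2 and 5 without BL LRC 1, 2 and 3 in turn and 1 and 1 without SL LRC 1 and 2. Of 25 tight and gap junction genes, 2 were higher and 0 lower, with a median of 0.09. These were Cldn4, a claudin, above background on 1 of 3 BL LRC arrays and both SL LRC arrays, and Cgn, or cingulin (2.20 ± 0.46). Neither junction call was retained (highest adjusted p = 0.29 and 0.176).

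Transcription factors of differentiation had 8 higher and 1 lower of 48 measured, with a median of 0.26, and 4 higher with the high-BioB arrays alone. The count of higher members was 7, 5 and 8 without BL LRC 1, 2 and 3 in turn and 2 and 3 without SL LRC 1 and 2. Grhl1, a Grainyhead-like factor that acts on desmosomal cadherin genes, read 1969, 1623 and 1600.1 units on the BL LRC arrays and 4628 and 4321 units on the SL LRC arrays (1.38 ± 0.19, adjusted p = 0.000779). Its relative Grhl3, needed for barrier formation, read 713, 527 and 968 units on the BL LRC arrays and 1692 and 2709 units on the SL LRC arrays (1.58 ± 0.28, adjusted p = 0.00498), while Grhl2 read 3756, 3735 and 3536 units in BL LRCs and 3322 and 2456 units in SL LRCs (-0.36 ± 0.17, adjusted p = 0.36). Grhl1 and Grhl3 were higher on both SL LRC arrays, and Grhl2 did not pass. Zfp750, a factor of terminal differentiation, Cebpa, which restrains keratinocyte growth, and Ovol1 rose by 1.65, 1.18 and 1.18. Grhl1 was retained, Grhl3 was lost without SL LRC 2 (adjusted p = 0.126), Zfp750 and Cebpa without SL LRC 1 (adjusted p = 0.0859 and 0.0532), and Ovol1 in 3 fits (highest adjusted p = 0.143). Klf4, a barrier factor, read 10356, 14545 and 15121 units in BL LRCs and 19512 and 18391 units in SL LRCs and did not pass (0.53 ± 0.18, adjusted p = 0.162).

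Notch pathway genes had 3 higher and 3 lower of 31 measured, with a median of 0.16. In epidermis the ligands sit mainly on basal cells and receptors act in suprabasal cells. Jag2, a ligand, read 4869, 4526 and 4035 units on the BL LRC arrays and 1902 and 1471 units on the SL LRC arrays (-1.42 ± 0.22, adjusted p = 0.00141). Dll1, another ligand, read 1848, 1461 and 1331 units on the BL LRC arrays and 823 and 393 units on the SL LRC arrays (-1.43 ± 0.35, adjusted p = 0.0344), and Lfng, which modifies the receptors with sugar, fell by 1.29. These 3 were lower on both SL LRC arrays. Among receptors, Notch3 read 1487, 1161 and 2189.8 units on the BL LRC arrays and 2572 and 3831 units on the SL LRC arrays (1.01 ± 0.25, adjusted p = 0.0381) and Notch2 rose by 0.57 ± 0.14. Nrarp, a target and feedback regulator, rose by 1.13 ± 0.24.

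Of the 6 Notch calls, Jag2 was retained and the others were not (highest adjusted p = 0.425 for Dll1, 0.304 for Lfng, 0.408 for Notch3, 0.295 for Notch2 and 0.194 for Nrarp). With the high-BioB arrays alone 0 members were higher and 1 was lower. On leaving out arrays, higher members numbered 0, 1 and 3 without BL LRC 1, 2 and 3 in turn and 0 and 0 without SL LRC 1 and 2, and lower members 1, 1 and 1 without BL LRC 1, 2 and 3 in turn and 2 and 1 without SL LRC 1 and 2. Notch1 read 3003, 3983 and 4277 units in BL LRCs and 3853 and 3828 units in SL LRCs (adjusted p = 0.973) and Jag1 2127, 3060.4 and 3011 units in BL LRCs and 2429 and 2883 units in SL LRCs (adjusted p = 0.981), with overlapping groups. Hes1, a classical target, read 555, 937 and 931 units in BL LRCs and 1146 and 1276 units in SL LRCs and did not pass (0.62 ± 0.30, adjusted p = 0.401).

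Immediate early genes, which respond within minutes to many stimuli, had 5 higher and 1 lower of 37 measured, with a median of 0.48. Egr2 read 675, 325 and 716 units on the BL LRC arrays and 2042 and 2869 units on the SL LRC arrays (2.17 ± 0.28, adjusted p = 0.000505). Egr1, a related zinc finger factor, read 2626, 3697 and 2500.2 units on the BL LRC arrays and 8926 and 7197 units on the SL LRC arrays (1.47 ± 0.21, adjusted p = 0.000878). Fos, a subunit of AP-1, read 1951, 5866 and 5165 units on the BL LRC arrays and 11497 and 11283 units on the SL LRC arrays (1.55 ± 0.36, adjusted p = 0.0278), its BL LRC values being uneven. Zfp36, which destabilises mRNA, rose by 0.86 ± 0.16. Egr1 and Egr2 were retained, and Fos lost its call on leaving out BL LRC 1, SL LRC 1 or SL LRC 2 (highest adjusted p = 0.19) and Zfp36 without SL LRC 1 (0.174). Ier3 was the lower member, from 1693, 1145 and 1097 to 473 and 564 units (-1.31 ± 0.34, adjusted p = 0.0468), and lost its call in all 5 fits without 1 array. The number of higher members was 3, 4 and 5 without BL LRC 1, 2 and 3 in turn and 2 and 3 without SL LRC 1 and 2. Heat shock and dissociation stress genes had 0 higher and 1 lower (Bag3) of 20 measured, with a median of -0.09.

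Wound and hyperproliferation genes had 5 higher and 0 lower of 28 measured, with a median of 0.77. Krt6a, a keratin of the follicle and of wounded epidermis, read 435, 525 and 344 units on the BL LRC arrays and 987 and 2292 units on the SL LRC arrays (1.81 ± 0.44, adjusted p = 0.0335), the SL LRC arrays differing from each other more than 2-fold. Krt16 read 130.5, 200.3 and 131 units on the BL LRC arrays and 451 and 442 units on the SL LRC arrays (1.57 ± 0.34, adjusted p = 0.019). Defb6, a beta-defensin, read 598, 1165 and 1312 units on the BL LRC arrays and 5856 and 8189.7 units on the SL LRC arrays (2.83 ± 0.35, adjusted p = 0.000355) and was retained, as was Sprr1a. Krt17 rose by 0.84 ± 0.21 with the probe set used here, but its difference was -0.11 when all its probe sets were averaged. The number of higher members was 3, 3 and 2 without BL LRC 1, 2 and 3 in turn and 3 and 2 without SL LRC 1 and 2. Krt6a, Krt16 and Krt17 were not retained (highest adjusted p = 0.411, 0.148 and 0.44).

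Signalling lists were read against the 1.41% of all genes called in each direction. Of 42 IGF, BMP and TGF beta genes, 1 was higher and 2 were lower, with a median of -0.12. Inhbb, the activin beta B chain, read 89.6, 175 and 114 units on the BL LRC arrays and 492 and 527 units on the SL LRC arrays (2.07 ± 0.41, adjusted p = 0.0111). Igfbp7, an insulin-like growth factor binding protein, read 1892, 1978 and 2055 units on the BL LRC arrays and 587 and 538 units on the SL LRC arrays (-1.81 ± 0.34, adjusted p = 0.00763). The groups were apart in both, and Tgfbr2, a TGF beta receptor, fell by 0.83. None of the 3 was retained (highest adjusted p = 0.107, 0.0846 and 0.208). Igfbp3, a related binding protein, read 5436, 3779 and 3858 units in BL LRCs and 1879 and 1764 units in SL LRCs, with groups apart, and did not pass (-1.24 ± 0.69, adjusted p = 0.502). Its standard error also draws on the non-LRC arrays, which were uneven (1165, 583 and 210 units in BL and 203 and 22.1 in SL). With the high-BioB arrays alone it was called lower (-1.07, limma adjusted p = 0.0144).

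Of 50 Wnt pathway genes 2 were higher (Fzd7 and Nkd2) and 2 lower (Lgr6 and Wls), with a median of 0.01. Fzd7, a Wnt receptor, read 1064, 813 and 871 units in BL LRCs and 1739 and 1941 units in SL LRCs (1.01 ± 0.19, adjusted p = 0.00591), and lost its call without SL LRC 2 (adjusted p = 0.0869). Of 21 EGF receptor family genes, Erbb3, a receptor without a working kinase, was higher and Spred1 and Spred2, inhibitors of the Ras pathway, were lower, with a list median of 0.18. Spred2 read 1472, 2147 and 2252 units in BL LRCs and 791 and 668 units in SL LRCs (-1.40 ± 0.25, adjusted p = 0.00451), a call lost without SL LRC 2 (adjusted p = 0.0732). Calcium handling and S100 genes had 2 higher (Calm4 and Calml3) and 2 lower (S100a6 and S100a13) of 39 measured, with a median of 0.04.

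Among lists of general metabolism, oxidative phosphorylation had 0 calls among 43 genes, with a median of -0.03, glycolysis 0 among 26 with -0.13, and cytoplasmic ribosomal proteins 0 among 27 with 0.01. Ribosome biogenesis genes had 1 lower (Nop56, a nucleolar protein, -0.67 ± 0.17) of 41 and a median of -0.05. Lysosome and autophagy genes had 1 lower (Ctsl) of 37, and actin cytoskeleton genes 2 lower of 44, Tpm2, a tropomyosin, and Ssh1, a phosphatase that activates cofilin. Ssh1 read 632, 343 and 483 units on the BL LRC arrays and 69.0 and 108 units on the SL LRC arrays (-2.45 ± 0.37, adjusted p = 0.0013) and was retained.

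Some genes of the hair follicle were also higher in SL LRCs. Infundibulum and sebaceous genes had 5 higher and 1 lower of 25 measured, with a median of 0.79 and 5 higher in each of the 5 fits without 1 array. The higher members were Krt79, Cst6, Defb6, Sostdc1 and Pdzk1ip1 (1.44 ± 0.23), and 3 of these stand on other lists above. The summed list level was 26033 to 30378 units in BL LRCs and 63680 to 70000 in SL LRCs. Mgst1, a sebaceous transcript, read 169, 105 and 281 units in BL LRCs and 187 and 577 units in SL LRCs, with overlapping groups, and did not pass (adjusted p = 0.527). Pparg, a regulator of sebocytes, was above background on 1 of the 5 arrays, SL LRC 2.

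Bulge and outer root sheath genes had 6 higher and 2 lower (Postn and Npnt) of 24 measured, with a median of 0.73. A positive difference was seen for 16 members and a negative one for 8. With the high-BioB arrays alone 0 members were higher and 1 was lower. Lower members numbered 1, 1 and 2 without BL LRC 1, 2 and 3 in turn, so that the 2 lower calls were not both retained. Higher members numbered 4, 3 and 3 without BL LRC 1, 2 and 3 in turn and 1 and 0 without SL LRC 1 and 2. Sox9, a factor of follicle stem cells, read 502, 617 and 551 units on the BL LRC arrays and 1205 and 1172 units on the SL LRC arrays (1.10 ± 0.21, adjusted p = 0.00716), and Lhx2, another, read 205, 219.7 and 179 units on the BL LRC arrays and 472 and 494 units on the SL LRC arrays (1.27 ± 0.28, adjusted p = 0.0182). Both were higher on each SL LRC array, and neither call was retained (highest adjusted p = 0.08 and 0.141). Cd34, a defining bulge marker, was above background on no BL LRC array and on both SL LRC arrays (48.0 and 43.6 units) without passing (adjusted p = 0.558).

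Inner root sheath and hair shaft genes had 2 higher (Krt25 and Foxn1) and 0 lower of 29 measured, with a median of 0.73. Krt25, an inner root sheath keratin, read 78.6, 30.3 and 40.3 units on the BL LRC arrays and 153 and 557 units on the SL LRC arrays (2.67 ± 0.57, adjusted p = 0.0169), a call lost on leaving out BL LRC 2, BL LRC 3 or SL LRC 2 (highest adjusted p = 0.307). The number of higher members was 2, 0 and 3 without BL LRC 1, 2 and 3 in turn and 1 and 0 without SL LRC 1 and 2. The summed level of 3 inner root sheath keratins was 101.3 to 207.0 units in BL LRCs and 554.1 to 1375.9 in SL LRCs. For 4 bulge markers the sums were 744.7 to 870.9 and 1798.4 to 1878.1, and for 5 infundibulum and sebaceous markers 5517.4 to 6781.6 and 13026.8 to 13893.4. Of the last 5 markers Krt79 alone was called. Plet1 (0.03, adjusted p = 0.986) and Lrig1 (-0.14, adjusted p = 0.862), on the same marker set, had overlapping groups. These sums therefore moved with the spinous and cornified-envelope genes, the last with Krt79 as its only called member. Their part in those results was not tested.

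For markers of other cells, summed Langerhans cell markers were 767.9 to 1203.7 units in BL LRCs and 800.2 to 1000.1 in SL LRCs, and T cell markers 413.8 to 742.2 and 493.1 to 631.9. Melanocyte markers summed to 72.9 to 95.8 and 40.3 to 94.4, with Tyr not above background on any of the 5 arrays. Fibroblast markers summed to 75.2 to 166.4 and 74.6 to 169.5, with Col3a1 not above background. Merkel cell markers summed to 53.0 to 72.2 and 74.4 to 136.3, the groups being apart with 0 calls. Over the longer lists, fibroblast and muscle genes had 2 lower (Col6a1 and Thy1) of 17, with list sums of 5431 to 7959 in BL LRCs and 2155 to 2440 in SL LRCs. Thy1 made up most of these sums, reading 7029.8, 5080.2 and 4382 units in BL LRCs and 1704 and 1563 units in SL LRCs (-1.72 ± 0.43, adjusted p = 0.0414). Thy1 was also the lower member of 20 T cell genes and lost its call in all 5 fits without 1 array (highest adjusted p = 0.235). Langerhans and myeloid genes had 1 higher (Epcam) and 1 lower (Csf1r) of 19, and melanocyte and endothelial, erythroid and nerve genes had 0 of 14 and 0 of 16. Among calls given above by symbol alone or with a difference alone, those of Cdsn, Pkp4, Bag3, Nkd2, Wls, Erbb3, Spred1, Calml3, S100a6, S100a13, Nop56, Tpm2, Foxn1, Col6a1, Epcam and Csf1r were not retained (highest adjusted p from 0.0689 for Calml3 to 0.563 for Csf1r).

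Most called genes, 360 of 512, stood on none of the 35 lists. The examples that follow were chosen after their values were seen, from those with the smallest p. Nectin4, an adhesion protein of the nectin family, read 1614, 1309.7 and 1564 units on the BL LRC arrays and 6948 and 5936 units on the SL LRC arrays (2.11 ± 0.21, adjusted p = 6.92e-05). Skint10, of a family linked to epidermal T cells, read 198, 412 and 432 units on the BL LRC arrays and 2352 and 2873 units on the SL LRC arrays (2.99 ± 0.30, adjusted p = 6.92e-05). Selenop, a secreted selenium carrier, read 2582, 2732 and 4136 units on the BL LRC arrays and 9479 and 9854 units on the SL LRC arrays (1.65 ± 0.20, adjusted p = 0.000279). The 3 were higher on each SL LRC array. Dnase1l3, a secreted DNase, rose by 3.25 ± 0.40, and Sort1, or sortilin, a sorting receptor, by 2.20 ± 0.27.

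On the lower side Ackr4, an atypical receptor that scavenges chemokines, read 9427, 11029 and 9576 units on the BL LRC arrays and 4034 and 4054 units on the SL LRC arrays (-1.30 ± 0.15, adjusted p = 0.000263). Ptprs, a receptor-type tyrosine phosphatase, read 7008, 5863 and 5611 units on the BL LRC arrays and 2158 and 2325 units on the SL LRC arrays (-1.45 ± 0.17, adjusted p = 0.000279). Agrn, or agrin, a heparan sulphate proteoglycan of basement membranes, read 6187, 6659 and 5676 units on the BL LRC arrays and 2678 and 1983 units on the SL LRC arrays (-1.42 ± 0.20, adjusted p = 0.000796). Both SL LRC arrays were the lowest of the 5 for each. Sema5a, a semaphorin, and Smoc2, a matricellular protein, fell by 2.08 and 1.84, and Mthfd1, an enzyme of folate metabolism that feeds nucleotide synthesis, by 1.51. All 11 of these genes retained their calls.

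Where 1 group was never above background, only a bound can be given. Fam3b, a secreted protein, was at least 7.66-fold higher in SL LRCs, which read 245 and 213 units, and Palm, or paralemmin, at least 3.57-fold higher. Cort, the neuropeptide cortistatin, was at least 6.3-fold lower, with 282, 221 and 207 units in BL LRCs, and Dmwd at least 3.08-fold lower. Cort and Dmwd retained their calls, while those of Fam3b and Palm were lost in all 5 fits without 1 array (highest adjusted p = 0.227 and 0.485).

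Genes known to the study as markers of the 2 lineages did not pass. Dlx1, a homeobox factor whose Cre driver has been used to mark label-retaining cells, read 169, 177 and 98.5 units on the BL LRC arrays and 119 and 27.1 units on the SL LRC arrays, with overlapping groups (-1.33 ± 0.82, adjusted p = 0.568). Slc1a3, a glutamate transporter whose Cre driver has been used to mark non-label-retaining cells, read 166, 314 and 75.8 units on the BL LRC arrays and 40.9 and 29.0 units on the SL LRC arrays. Its groups were apart (-2.20 ± 0.65, adjusted p = 0.0923). The difference was 0.14 in the fit with quantile normalization, which also chose the probe set of each gene again. Normalization and probe set cannot be told apart there.

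The same layer comparison in cells that had lost the label gave 283 calls, 212 higher (1.17%) and 71 lower (0.39%) in SL non-LRCs than in BL non-LRCs. Called higher in both comparisons were 111 genes and called lower in both 28, which together are 27.1% of the calls in LRCs and 49.1% of those in non-LRCs. The comparisons share no arrays, and whether they share animals is not given. Of the 256 genes higher in SL LRCs, 248 had a positive difference in non-LRCs too, and of the 256 lower, 224 a negative one. The median difference of the higher genes was 1.52 in LRCs and 1.07 in non-LRCs, and of the lower genes -1.50 and -0.57. These genes were chosen on the LRC arrays, which favours larger values there. All SL LRC arrays belong to the high-BioB set and both SL non-LRC arrays to the low one, so that label and array set cannot be told apart among the SL arrays.

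**Figure D4:**
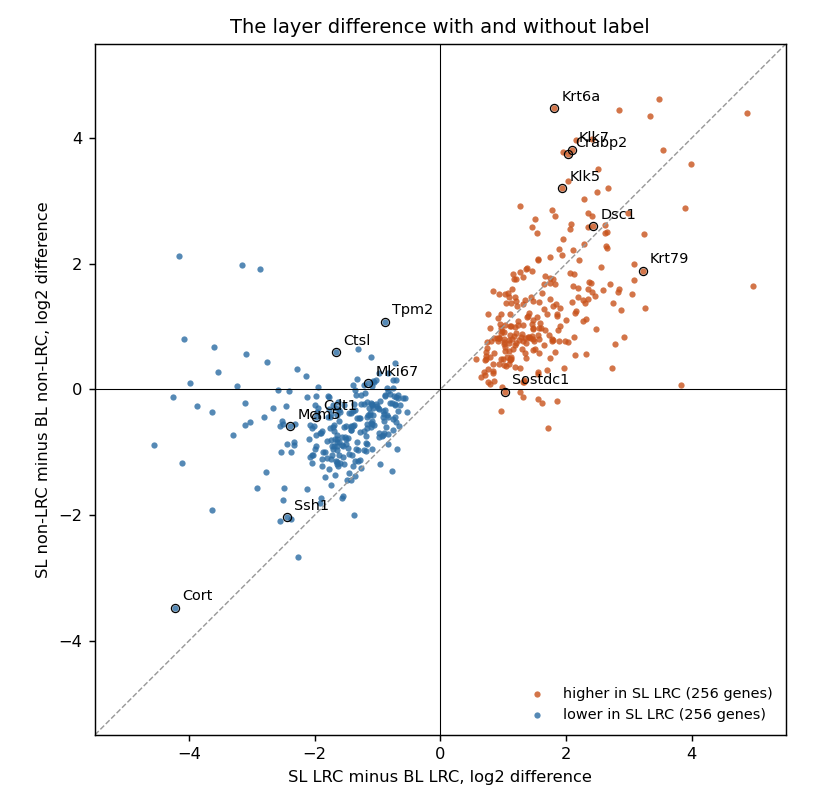
Each point is 1 of the 512 called genes, with its log2 difference between layers in LRCs on the horizontal axis and in non-LRCs on the vertical axis, and the dashed line marks equality. Orange points (256 higher) lie mostly in the upper right and blue points (256 lower) mostly below 0 on the vertical axis but nearer to 0 than on the horizontal one, with Tpm2 and Ctsl above 0 on the vertical axis.

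The test of the difference between the comparisons passed for 0 of 18193 genes, and for 1291 genes p was below 0.05 before adjustment. The lowest adjusted value in limma was 0.0948. With an array-set term 5 genes passed, each with a smaller (more negative) layer difference in LRCs, and 6 did without BL non-LRC 3, 3 without BL non-LRC 1 and 1 each without BL LRC 3 and without SL LRC 2. Without SL non-LRC 2, 1 gene had a larger difference in LRCs. Mcm5 was among the genes with that smallest value. It read 3427, 4013 and 4785 units in BL non-LRCs, 2938 and 2478 in SL non-LRCs and 833 and 522 in GL cells, a layer difference of -0.58 ± 0.21 without label and a difference between comparisons of -1.81 ± 0.30 (adjusted p = 0.0948). For Mcm5, SL LRCs thus lay near the GL values and SL non-LRCs between them and the basal values. This did not hold for every replication gene, as Cdt1 read 722 and 682 units in SL LRCs and 275 and 310 in GL cells. The replication list had a median of -0.62 in non-LRCs with 1 lower member, and the mitosis list -0.34 with 0. Mki67 read 3314, 3162 and 4578 units in BL non-LRCs and 4079.9 and 3737 in SL non-LRCs, a difference of 0.10 ± 0.23 (adjusted p = 0.925).

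Ctsl and Tpm2 shared the smallest adjusted p of the difference between comparisons. Ctsl read 1596, 1290.1 and 775 units in BL non-LRCs and 1981 and 1566 in SL non-LRCs (-2.26 ± 0.37, adjusted p = 0.0948). In the other direction Sostdc1 read 14399, 18258 and 14306 and 14381 and 15994 units in the non-LRC layers, where the difference was -0.04 ± 0.15, and the difference between comparisons was 1.07 ± 0.21 (adjusted p = 0.184). Krt79 had a smaller layer difference without label (1.89 ± 0.23), from a higher basal level (4922, 4481 and 8887 units), with adjusted p = 0.356 for the difference between comparisons.

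Some genes of the desquamation, spinous and wound lists had larger layer differences in non-LRCs, again without passing the test of the difference. Klk7 read 305, 320.4 and 373 units in BL non-LRCs and 5963 and 3665 in SL non-LRCs (3.82 ± 0.28), against 2.09 in LRCs (adjusted p = 0.318). Crabp2 differed by 3.75 ± 0.24 without label and 2.03 with it (adjusted p = 0.184). Krt6a, the keratin of the follicle and of wounded epidermis, differed by 4.48 ± 0.44 and 1.81 (adjusted p = 0.318). The part of follicle cells in these differences was not tested. The cornified-envelope list had 10 higher and 1 lower member in non-LRCs, with a median of 1.62, and the spinous list 8 and 1, with a median of 0.55.

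**Figure D5:**
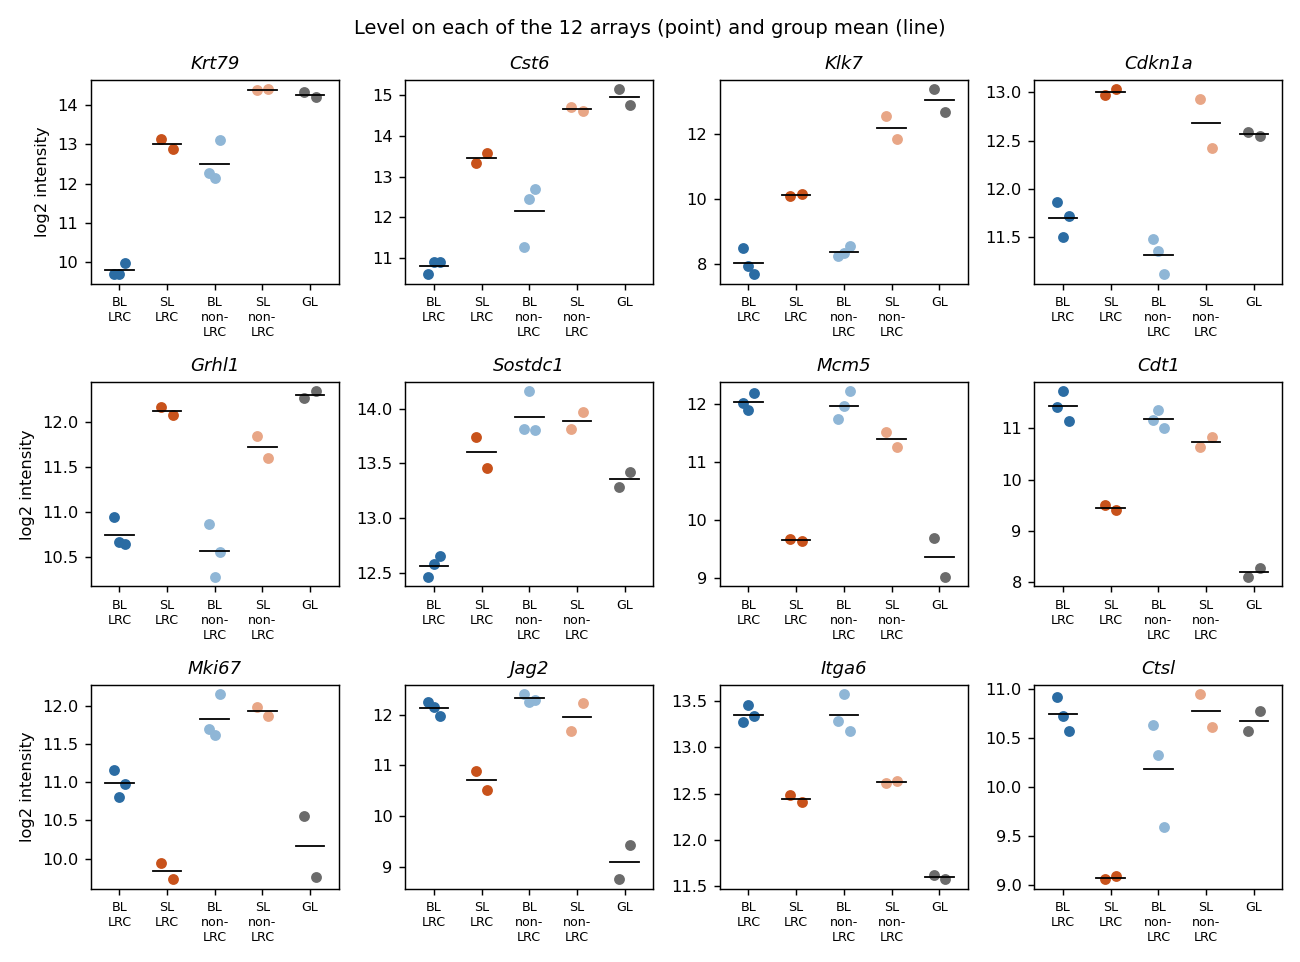
Log2 intensity of 12 genes on each of the 12 arrays (points) with group means (lines), with the LRC groups first, then the non-LRC groups and GL, each panel with its own vertical axis that does not start at 0. Krt79, Cst6, Klk7, Cdkn1a and Grhl1 are higher in SL than in BL with or without label, and Mcm5 and Cdt1 lie lower in SL LRC than in SL non-LRC.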

How the data were processed

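RNA from sorted mouse skin cells (5 ng per sample, amplified and biotin-labelled with the Ovation Pico WTA System and Encore Biotin Module, per the labels' protocols) was hybridised to 1-colour expression arrays. The deposited intensity values are linear, and tested on the file each array has a 2% trimmed mean of 500.0 and a floor of 1. The sources used here do not name the scanner or the scaling software. Because the values were linear, log2 was taken here with nothing added, whereas the planned design had assumed deposited log2 values.

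Of 45101 probe sets, 64 controls, 932 with several genes and 9160 with none were left out. The remaining 34945 gave 18193 genes, each read by the probe set with the highest mean log2 over the 12 arrays (9010 genes had several, and 1543 are read by an _s_at or _x_at probe set). Names came from the platform annotation, and 34741 of those probe sets had a symbol in RefSeq. Background was the 95th percentile of 27 bacterial probe sets on each array, 22.36 to 42.56 units. Where no array of a group was above it, a fold is given as at least N, from the mean log2 of the bright group against the higher of background and signal on each dim array.

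Group means were fitted to all 12 arrays with limma 3.58.1 (R 4.3.3, lmFit, eBayes with a mean-variance trend, Benjamini-Hochberg adjustment over all genes, threshold 0.05), which was tested on simulated data. Contrasts were SL LRC minus BL LRC, the same in non-LRCs, and their difference. Tables and figures were made with Python 3.11.15, pandas 2.3.3, numpy 2.4.6 and matplotlib 3.10.9. Promoters were RefSeq sequences (GRCm38.p6) for 14452 of the genes. Alternatives changed the arrays fitted, the array-set term, replicate block, normalization, filter, offset, probe set rule and variance model.

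The members and gene lists were chosen with earlier results of these data known. Named genes were the 20 with the largest called differences in each direction, list members that passed or had the smallest p, a fixed set of epidermal genes and those with the smallest p for the difference between comparisons, and genes named outside this rule are marked in the text. The number of arrays limits the precision of each value.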

Additional observations from a re-analysis of the deposited data

Results flagged for a closer look

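For 10 of the 512 genes called between SL LRCs and BL LRCs, every SL non-LRC array lay on the opposite side of every BL non-LRC array. Groups that lie apart were common over all 18193 genes (2606 higher and 2812 lower between the LRC layers). So few opposite orders are therefore not a result on their own. The layer values thus stood in opposite orders with and without label, which is how the genes were chosen. Tpm2 alone was also called between the non-LRC layers. No call of the 10 between SL LRCs and BL LRCs was retained. The difference between the comparisons was tested for each, and none passed after adjustment over all genes in limma (smallest adjusted p = 0.0948). An 11th such gene was above background on 1 of these 10 arrays, a BL LRC array, and is not described.

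Tpm2, a tropomyosin, read 1687, 1411 and 1091 units on the BL LRC arrays and 638 and 863 units on the SL LRC arrays, against 3454, 2517 and 3317 units in BL non-LRCs and 6104 and 6879.8 in SL non-LRCs, and the difference between comparisons was -1.97 ± 0.30 (adjusted p = 0.0948). It was the one gene called in both comparisons with opposite signs. Clic4, a chloride intracellular channel protein, read 3439, 2895 and 2779 units in BL LRCs and 1554 and 2154 units in SL LRCs, and 5253, 4966 and 4872 and 6525 and 6915 units in the non-LRC layers (-1.14 ± 0.23, adjusted p = 0.21). Cers2, a ceramide synthase, read 366, 458 and 409.7 units in BL LRCs and 164 and 219.6 units in SL LRCs, and 615, 768 and 679.5 and 944 and 1024 units without label (-1.63 ± 0.37, adjusted p = 0.295). In these 3 the non-LRC arrays were above the LRC arrays in both layers.

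Ier3, an immediate early gene, differed between the comparisons by -1.95 ± 0.48 (adjusted p = 0.378), and H2az1, the histone variant H2A.Z, by -0.86 ± 0.23 (adjusted p = 0.452). Arfgap1, a regulator of vesicle coats, was higher in SL LRCs and lower in SL non-LRCs than in their basal counterparts, with a difference of 1.30 ± 0.32 (adjusted p = 0.397).

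The remaining 4 genes were dim in SL LRCs, where no array was above background, so that their fitted sizes are not bounds. The difference between comparisons was -5.14 ± 0.99 for Gm15408, -4.88 ± 1.02 for Il18r1, an interleukin 18 receptor chain, -4.79 ± 1.06 for Csf1r, the receptor of macrophages and Langerhans cells, and -3.83 ± 1.13 for Sh2b2, a signalling adaptor (adjusted p = 0.184, 0.212, 0.295 and 0.522). Csf1r read 5081 and 1941 units in GL cells.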

How the results depend on the processing

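The count of higher genes ranged from 81 to 210 and of lower genes from 97 to 150 when 1 of the 5 arrays was left out, lowest without SL LRC 2 and SL LRC 1 respectively. Without the mean-variance trend they were 26 and 39, of which 57 were among the 512, and the high-BioB arrays alone gave 133 lower. Under the other alternatives run both counts stayed within 1.5 times. With 2 SL LRC arrays, leaving 1 out assumes that the lone array varies like the other groups.

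No gene passed the test of the difference between the layer comparisons, which does not show that no gene differed. On leaving out 1 BL LRC or BL non-LRC array, 0 genes had a larger difference in LRCs and 0 to 6 a smaller one. The fits without a non-LRC array were added after seeing the data. The count of smaller differences was 5 with an array-set term, and 2 with the mean of all probe sets and with no trend.

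With the replicate block the counts were 316 higher and 286 lower, of which 460 were among the 512, and 4 genes had a smaller difference in LRCs. SL LRC and BL LRC arrays that share a number did not deviate together (correlations of 0.03 and -0.004). BL LRC and BL non-LRC arrays each correlated best with their own number (0.111, 0.054 and 0.064). The BL arrays of number 1 both had low BioB (466.8 and 516.8). Both also had 0 of 3 Y-linked genes above background, as no other array of the series had. These are hints from the data that fall short of pairing, and whether arrays of the same number share animals is not given.

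Differences that changed sign belonged to genes that did not pass, apart from Krt17 (-0.11 with the mean of all probe sets). Cdkn1b was -0.021 with the replicate block and -0.054 to 0.15 on leaving out 1 array. Jag1 was 0.019 with the block, 0.052 with centred arrays, 0.121 with the mean of all probe sets and -0.198 to 0.097 on leaving out 1 array. Notch1 was -0.174 with the array-set term, -0.104 with the high-BioB arrays and -0.104 to 0.151 on leaving out 1 array. Slc1a3 was 0.139 after quantile normalization, a setting that also chose the probe set of each gene again. The causes were not tested.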

Other observations

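Further genes on none of the lists, chosen after their values were seen, were called in each fit without 1 array. Gab2, an adaptor of receptor tyrosine kinases, read 206, 78.6 and 153 units on the BL LRC arrays and 1116 and 1191 units on the SL LRC arrays (3.09 ± 0.46, limma adjusted p = 0.00119). Tesc, the calcium-binding protein tescalcin, read 235, 151 and 254 units on the BL LRC arrays and 1255 and 1610.1 units on the SL LRC arrays (2.77 ± 0.40, adjusted p = 0.000909). Shroom3, which organises apical actin, rose by 1.91 ± 0.27 and Ptgr1, a prostaglandin reductase, by 1.79 ± 0.21. All SL LRC arrays lay above all BL LRC arrays in these genes.

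Among the lower genes Itm2c, a transmembrane protein of the BRICHOS family, read 2344, 2389.6 and 2245 units on the BL LRC arrays and 883 and 791 units on the SL LRC arrays (-1.48 ± 0.18, adjusted p = 0.000279). Tns1, or tensin, which ties integrins to actin, read 2177, 2036 and 1913 units on the BL LRC arrays and 628 and 670.1 units on the SL LRC arrays (-1.65 ± 0.24, adjusted p = 0.000919). Tnxb, a tenascin of the matrix, and Atad2, a chromatin ATPase of dividing cells, fell by 1.43 and 1.35. The groups were apart in all 4.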
